A study of Mus musculus with 9 samples.

Results

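The genes described here are those annotated to the assembly of the cilium but not to the axoneme, its microtubule core, or to motile cilia. A row of the table was a member if its GO column held the term for cilium assembly and none of the terms for axoneme, motile cilium and cilium movement, and if its mean over the 6 libraries was at least 1 FPKM. FPKM counts fragments per transcript length and per mapped fragments of a library, so levels can be compared between genes per length. Of 17730 genes in the table, 140 met the GO part of the rule and 124 of these also reached 1 FPKM. The rule used GO terms and the mean level over both groups, not the difference between them, and the mean levels are given only as a description. The terms do not remove every gene of motile cilia: Foxj1, Gmnc, Tekt1 and Cfap54 are members.

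The study gave wild-type astrocytes from newborn C57BL/6 mouse brain medium conditioned by microglia. The groups are LPS-MCM, medium of microglia stimulated with lipopolysaccharide (LPS, a component of bacterial walls), and Hemin-MCM, medium of microglia stimulated with hemin (a breakdown product of hemoglobin), with 3 libraries each. Medium of resting microglia, a further group of the series, was not analysed here. Higher and lower thus compare LPS-MCM with Hemin-MCM throughout, and which group moved cannot be told apart. The series' design calls the libraries of a group separate, but names no separate cultures or animals behind the 3 libraries of a group, so a p-value here reflects only how these libraries vary, which may be technical.

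A cilium grows from the basal body, a modified mother centriole docked at the membrane. Intraflagellar transport trains, made of the IFT-B and IFT-A complexes and moved by kinesin and dynein motors, carry cargo to the tip and back. The BBSome, a coat complex named after Bardet-Biedl syndrome, moves membrane receptors with these trains, and the transition zone at the base acts as a gate. Astrocytes carry a single immotile primary cilium that senses signals such as Hedgehog, whereas ependymal cells lining the brain ventricles carry many motile cilia. RFX transcription factors bind the X-box of promoters of ciliary genes, and FOXJ1 drives genes of motile cilia.

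Promoter letters are shown first for members whose windows hold an X-box like motif, because RFX genes are themselves members. RefSeq windows (GRCm38.p6, the assembly that mm10 names) of 300 bases, 250 before and 50 after a transcription start, were matched by gene identifier for 105 of the 124 members. The start used is not always the outer end of the annotated gene. The Ubxn10 stretch below, for example, lies well inside its gene (chr4:138709837-138738438). A relaxed X-box motif of 14 bases, in which several inner positions are free, was searched on both strands and was in a window of 16 of these 105 (15.2%), beside 3.48% of the 9415 tested genes with a window. The transition zone genes held it in 8 of 16 cases. A stricter form with fewer free positions, whose matches are all matches of the relaxed one, was in windows of 6 of the 105 (5.71%), beside 0.457%, and the short core GTTGCC, which can overlap matches of both, in 32 (30.5%), beside 15.4%. These are matches of letters and not shown binding sites. The following 30-base stretches are those of the 8 transition zone genes and of the other 3 members with the motif that passed the test described below, 5′ to 3′ on the gene's strand, with the relaxed motif (a match on either strand) in capitals.
Tctn2 (chr5:124598679-124598708, plus strand): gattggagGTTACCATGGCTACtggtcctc
Tctn1 (chr5:122264411-122264440, minus strand): gcgctaggctgtgactGTTGCCCGGGCAAC
Mks1 (chr11:87853183-87853212, plus strand): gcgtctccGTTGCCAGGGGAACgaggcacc
Ahi1 (chr10:20952560-20952589, plus strand): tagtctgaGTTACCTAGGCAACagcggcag
B9d2 (chr7:25680788-25680817, plus strand): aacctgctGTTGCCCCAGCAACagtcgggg
Tmem216 (chr19:10555723-10555752, minus strand): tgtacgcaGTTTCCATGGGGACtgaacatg
Tmem231 (chr8:111933781-111933810, minus strand): cgccgtcgGTTGCCGTGGAGACtcggcgct
Tmem237 (chr1:59120102-59120131, minus strand): tagtcagcGTTGCCATGGCGACgcctccgg
Ubxn10 (chr4:138725233-138725262, minus strand): ccttggcgGTTGCCAGGGAGACagggctgt
Cfap298 (chr16:90935016-90935045, minus strand): gggttttgGTTGCCCGGGCAACagctactt
Cep83 (chr10:94688768-94688797, plus strand): ccctccgaGTTTCCCGGGCTACctcaacct

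Tctn2 carries its motif 62 bases before the start, and its 250 bases upstream (chr5:124598499-124598748, plus strand) are shown whole, with the motif in capitals, as the setting of the motif in the transition zone gene that had both the motif and a called difference.
Tctn2 upstream: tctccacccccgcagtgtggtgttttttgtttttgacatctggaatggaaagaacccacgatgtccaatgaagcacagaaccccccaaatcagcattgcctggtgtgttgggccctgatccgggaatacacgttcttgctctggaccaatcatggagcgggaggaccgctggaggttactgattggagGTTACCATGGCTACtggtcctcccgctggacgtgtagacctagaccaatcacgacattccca

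A larger share of these genes was lower in LPS-MCM than of all tested genes, but most members did not pass the test. All 124 members entered limma's test on log2(FPKM + 1), adjusted over the 11688 genes that averaged 1 FPKM or more (Benjamini-Hochberg, threshold 0.05). Of the members, 29 were lower in LPS-MCM (23.4%), where 13.8% of all tested genes were lower, 5 were higher (4.03%), where 6.72% of all were, and 90 did not pass. The excess was not shared by all role groups: 19 of the 29 lower members were among the 58 outside the named roles (32.8%). Intraflagellar transport held 4 of 16 (25%) and the BBSome 2 of 3 (66.7%). The transition zone held 3 of 18 (16.7%), and centrioles and basal bodies 1 of 29 (3.45%). Gmnc, 1 of the 29 lower members, reached the 1 FPKM floor only through its Hemin-MCM level. The difference in log2(FPKM + 1), LPS-MCM minus Hemin-MCM, was below 0 for 101 members (81.5%), beside 60.7% of all tested genes, and its median was -0.11 over members and -0.04 over all genes. The members' differences ran from -0.86 to 0.36. Of the 124 members, 3 (Gmnc, Tekt1 and Gsn) were past the threshold with more than a 1.5-fold difference on that scale, beside 451 of all 11688 tested genes. On this scale the differences of weakly expressed genes come out too small. In bulk RNA, fewer cells of a type and less RNA per cell cannot be told apart.

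All 3 LPS-MCM libraries lay below all 3 Hemin-MCM libraries for 51 members (41.1%), beside 24.7% of all tested genes. They lay above for 7 members (5.65%), beside 12.8%. Median-of-ratios scaling centres the libraries on a common median ratio, so by construction it placed the median of all genes near 0 (0.00). It raised the share of higher genes among all called genes to 46%, against 32.8%. Under it 18 members were lower (14.5%), beside 10.3% of all genes, and 5 higher (4.03%, beside 8.75%), and the members' median was -0.07. Without the second Hemin-MCM library 18 members were lower as well (14.5%), beside 9.6% of all tested genes in that run. The 5 higher members were reduced to 3 by leaving out the first or second LPS-MCM library, or of Hemin-MCM the first or the third. That is 2.42% of members, beside 4.98% to 5.93% of all genes in those runs.

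**Figure D1:**
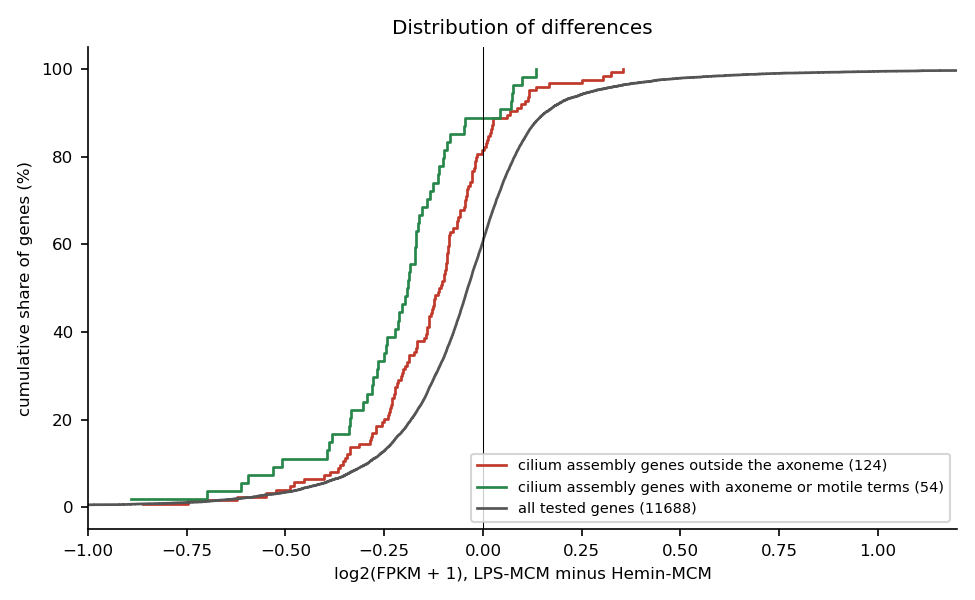
Cumulative share of genes (y axis, percent) by the difference in log2(FPKM + 1), LPS-MCM minus Hemin-MCM (x axis, shown from -1 to 1.2), for the 124 members, the 54 cilium assembly genes with axoneme or motile terms, and all 11688 tested genes. The curve of the members lies left of that of all genes in the middle of the range, with medians of -0.11 and -0.04.

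Levels of the members ran from 1.13 to 179.5 FPKM, with a median of 11.4, and calls were spread over this range: in 4 sets of 31 members each, ordered from low to high level, 6, 9, 6 and 8 were lower and 0, 0, 2 and 3 higher. Just inside the floor were Cdc14b (mean 1.13 FPKM), Kif24 (1.16) and Armc9 (1.2), and just outside it Cep126 (0.985), Fam161a (0.903) and Rilp (0.882). The 16 genes below the floor were not tested, and 5 of them had a mean under 0.1 FPKM. Gmnc was the 1 member whose LPS-MCM mean alone was below the floor.

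**Figure D2:**
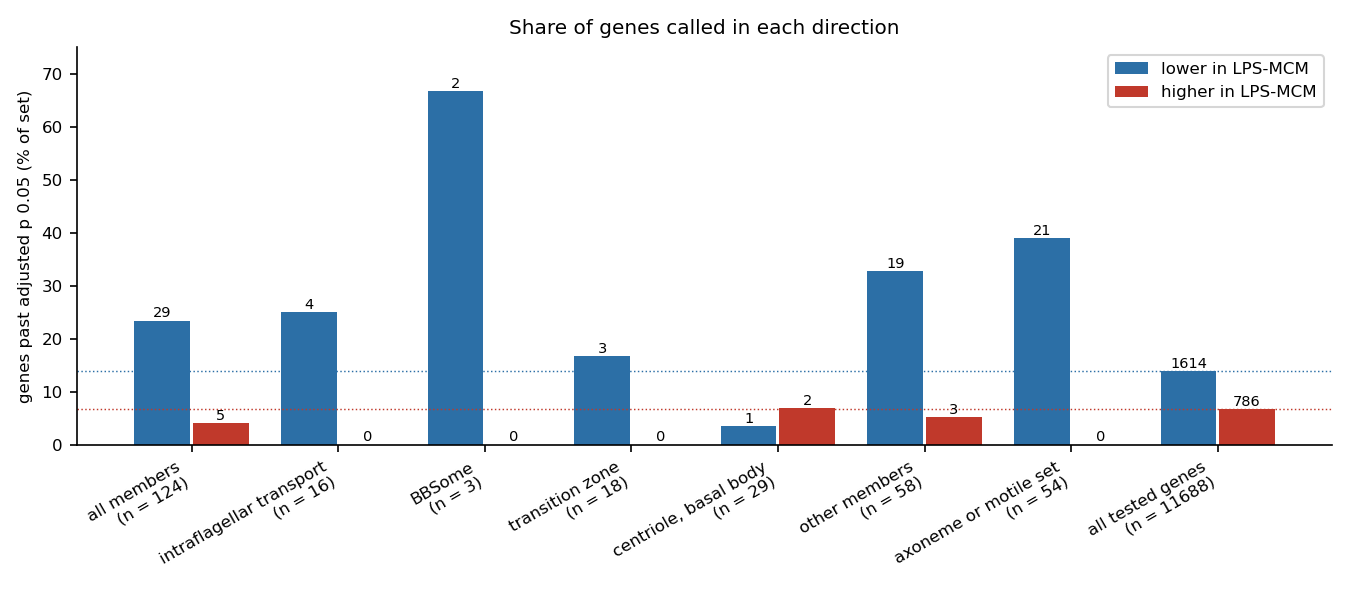
Genes past the adjusted p of 0.05 as a share of each set (y axis, percent), lower (blue) and higher (red) in LPS-MCM, with counts on the bars and the shares over all tested genes as dotted lines. Lower calls made up 23.4% of the members, 38.9% of the cilium assembly genes with axoneme or motile terms and 13.8% of all genes.

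Among the 16 intraflagellar transport genes, 4 were lower in LPS-MCM (25%, beside 13.8% of all tested genes) and 0 higher (beside 6.72%), with a median difference of -0.13. The called genes belong to different parts of the trains. Ubxn10, which links the segregase VCP to IFT-B, had 2.82, 2.89 and 2.80 FPKM in LPS-MCM libraries, against 3.81, 4.03 and 3.86 FPKM in Hemin-MCM libraries. The groups did not overlap, and the difference was -0.35 ± 0.07 (SE; limma adjusted p = 0.00355). Rabl2, a small GTPase that helps IFT-B trains to start, had 13.5, 13.4 and 11.9 FPKM in LPS-MCM and 14.7, 16.5 and 16.7 FPKM in Hemin-MCM (-0.28 ± 0.07, adjusted p = 0.0158). Every LPS-MCM library was again below every Hemin-MCM library.

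Ift43, an IFT-A subunit, had 36.8, 34.1 and 34.1 FPKM in LPS-MCM libraries and 37.6, 44.1 and 41.9 FPKM in Hemin-MCM libraries (-0.23 ± 0.06, adjusted p = 0.0325). The highest LPS-MCM and the lowest Hemin-MCM value of Ift43 were close to each other. Cluap1, an IFT-B subunit also called IFT38, had 3.55, 3.40 and 3.85 FPKM in LPS-MCM and 4.56, 4.89 and 4.06 FPKM in Hemin-MCM (-0.26 ± 0.08, adjusted p = 0.0434), without overlap. The adjusted p of Ift43 ran from 0.0126 to 0.132 over the alternatives and that of Cluap1 from 0.0285 to 0.159. Of the subunits that did not pass, Ift81 had 17.8 and 20.0 FPKM, Ift122 21.9 and 24.1, and Ift52 27.0 and 27.4 in LPS-MCM and Hemin-MCM. Dynll1, a dynein light chain and the most abundant gene of the group, averaged 50.8 ± 1.37 FPKM in LPS-MCM and 54.0 ± 1.32 FPKM in Hemin-MCM and did not pass (-0.09 ± 0.05, adjusted p = 0.237). Of the 4 calls, 2 were left when the second library of LPS-MCM or the third of Hemin-MCM was left out, 2 with median-of-ratios scaling, and 1 when the second Hemin-MCM library was left out.

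Only 3 BBSome genes were members, and 2 of them were lower (66.7%, beside 13.8% of all genes), a share that rests on few genes. Bbs9, a core subunit, had 5.38, 4.72 and 5.89 FPKM in LPS-MCM and 7.15, 7.28 and 7.01 FPKM in Hemin-MCM. The Hemin-MCM libraries were close together and all above those of LPS-MCM (-0.37 ± 0.08, limma adjusted p = 0.00681). Ttc8, the subunit known as BBS8, averaged 16.1 ± 0.928 and 18.7 ± 1.03 FPKM in LPS-MCM and Hemin-MCM (SD, n = 3 each; -0.20 ± 0.06, adjusted p = 0.0435). Its call was lost with median-of-ratios scaling (adjusted p = 0.092) and when any one of 4 libraries was left out, the first or second of LPS-MCM and the second or the third of Hemin-MCM, and its adjusted p ran from 0.0138 to 0.166 over the alternatives. Bbip1, a small subunit that helps the complex to assemble, was at 13.8 and 14.1 FPKM and did not pass (adjusted p = 0.803).

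**Figure D3:**
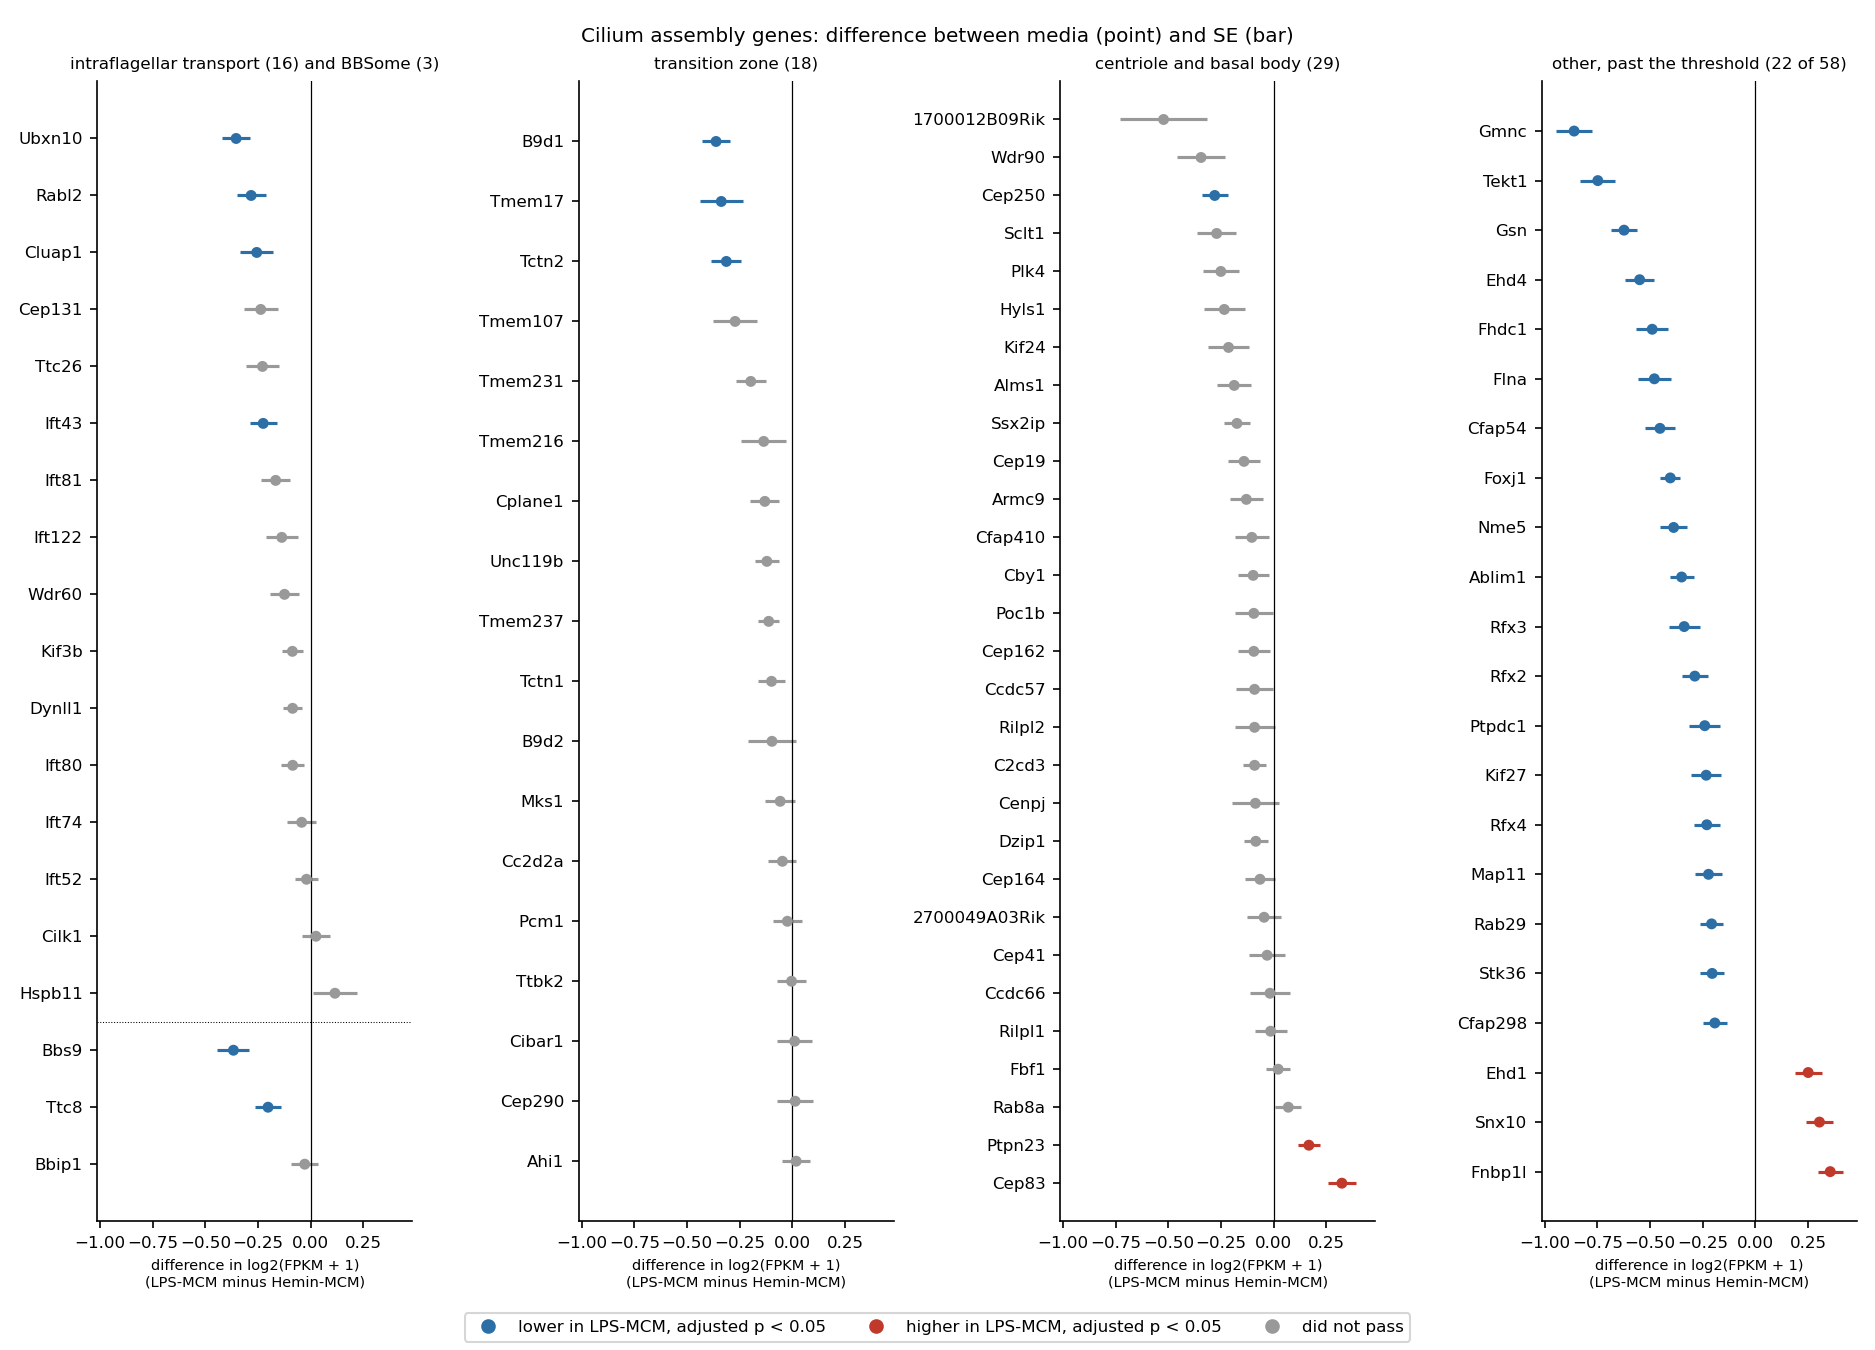
Difference in log2(FPKM + 1), LPS-MCM minus Hemin-MCM (x axis), with its SE as a bar, for each intraflagellar transport, BBSome, transition zone and centriole member and for the 22 other members past the threshold; BBSome genes stand below the dotted line. Most points lie left of 0, and the red points of Cep83, Ptpn23, Ehd1, Snx10 and Fnbp1l are the 5 higher members.

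In the transition zone, 3 of 18 members were lower and none was higher, which is near the share over all genes (16.7% beside 13.8%), and the median was -0.11. The 3 genes encode parts of the MKS complex, the membrane-linked module of the gate. Other genes of this complex did not pass, among them Tmem231 (limma adjusted p = 0.0847), Tctn1 (0.344), B9d2 (0.621) and Mks1 (0.638). B9d1, a B9-domain protein, had 25.6, 24.3 and 22.8 FPKM in LPS-MCM libraries and 28.7, 32.6 and 33.1 FPKM in Hemin-MCM libraries, with no overlap (-0.36 ± 0.07, limma adjusted p = 0.00343). Tctn2, a tectonic protein whose promoter is shown above, had 17.7, 20.7 and 17.5 FPKM in LPS-MCM and 22.1, 24.0 and 23.9 FPKM in Hemin-MCM (-0.31 ± 0.07, adjusted p = 0.0106). The second LPS-MCM library was the highest of its group for Tctn2, still below every Hemin-MCM library.

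Tmem17, a transmembrane subunit, had 2.76, 3.00 and 2.85 FPKM in LPS-MCM and a wider spread of 3.88, 4.68 and 3.22 FPKM in Hemin-MCM (-0.34 ± 0.10, adjusted p = 0.0431). Under median-of-ratios scaling its adjusted p was 0.0647, and over all alternatives it ran from 0.0128 to 0.142, with the call lost when any library other than the third of Hemin-MCM was left out. Genes of the large scaffold proteins showed no such gap. Cep290, which bridges microtubules and membrane, averaged 3.24 ± 0.386 FPKM in LPS-MCM and 3.20 ± 0.252 FPKM in Hemin-MCM (adjusted p = 0.936). Pcm1, the scaffold of centriolar satellites that GO also places here, averaged 21.9 ± 2.13 and 22.2 ± 0.97 FPKM (adjusted p = 0.858), and for both genes the groups overlapped and the sign of the difference changed between alternatives. Unc119b, a chaperone for lipid-modified cargo and the most abundant gene of the group, had 29.4, 30.7 and 27.1 FPKM in LPS-MCM and 32.4, 30.5 and 31.9 FPKM in Hemin-MCM and did not pass (adjusted p = 0.18).

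Centriole and basal body genes had the fewest lower calls for their number, 1 of 29 (3.45%, beside 13.8% of all genes), and 2 were higher (6.9%, beside 6.72%). Their median difference was -0.09 and 25 of the 29 lay below 0. Cep250, which encodes the linker protein C-Nap1 between centrioles, had 7.01, 7.57 and 7.19 FPKM in LPS-MCM libraries and 8.68, 8.94 and 9.47 FPKM in Hemin-MCM libraries (-0.28 ± 0.06, limma adjusted p = 0.00882). Cep83, a component of the distal appendages that dock the basal body, went the other way, with 13.1, 12.8 and 15.1 FPKM in LPS-MCM and 10.4, 10.8 and 10.8 FPKM in Hemin-MCM. Its Hemin-MCM libraries were nearly equal and all lower than those of LPS-MCM (0.32 ± 0.07, adjusted p = 0.00732).

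Ptpn23, an endosomal sorting protein, was at 21.9 ± 0.242 FPKM in LPS-MCM and 19.4 ± 0.906 FPKM in Hemin-MCM (0.17 ± 0.05, adjusted p = 0.049), a call lost without any single library (adjusted p from 0.0173 to 0.161 over the alternatives). Cep164, another distal appendage gene, did not pass, at 5.27 ± 0.211 and 5.57 ± 0.395 FPKM (-0.07 ± 0.07, adjusted p = 0.569). Rab8a, a GTPase of ciliary membrane growth and the most abundant gene of the group, was at 46.8 ± 3.12 and 44.5 ± 2.47 FPKM and did not pass (adjusted p = 0.495). The number of lower centriole genes ranged up to 5, reached without the third LPS-MCM library, and was 2 without the second LPS-MCM library and 3 without the third Hemin-MCM library. Plk4, the kinase that starts centriole duplication, was at 1.74 ± 0.0946 and 2.27 ± 0.285 FPKM and did not pass (adjusted p = 0.0669).

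**Figure D4:**
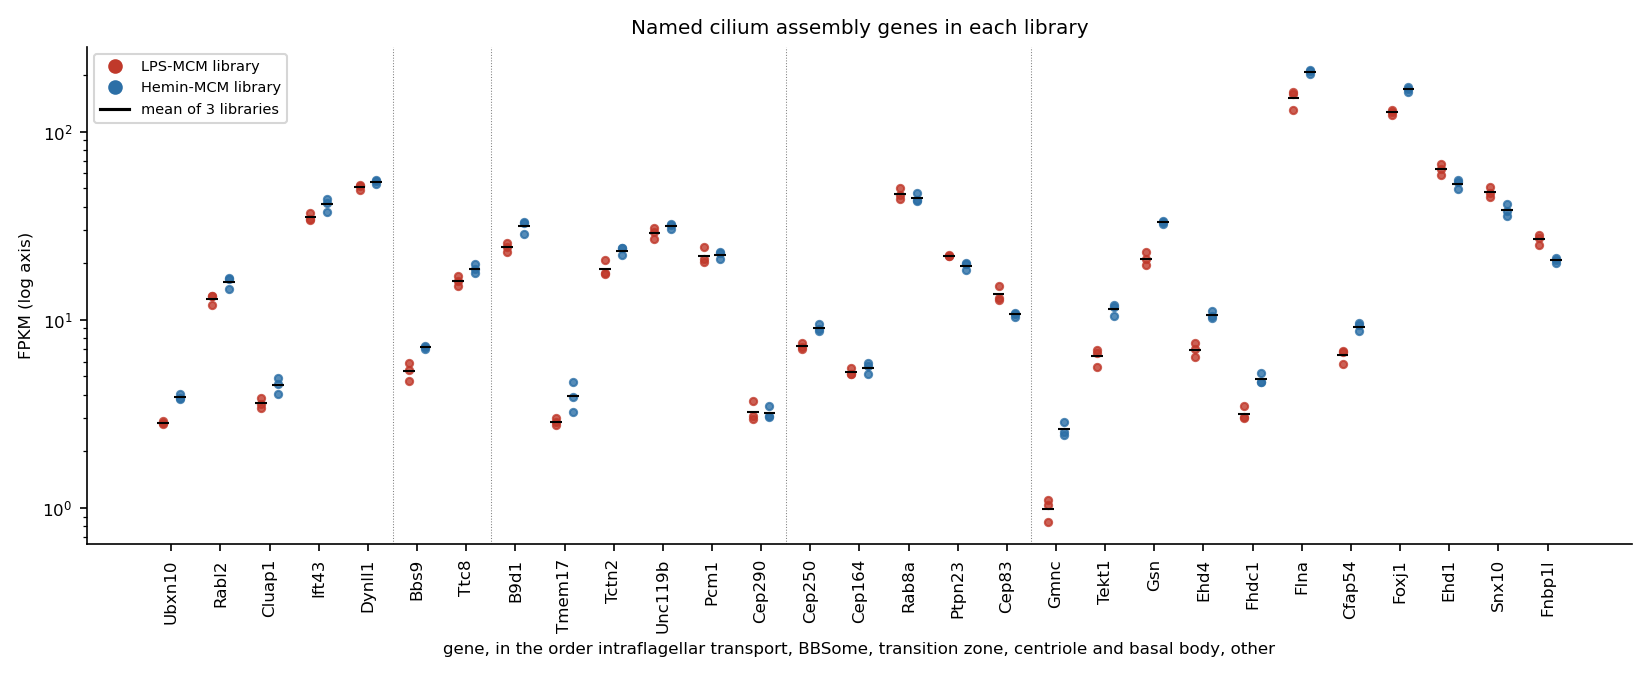
FPKM on a log axis for the 29 members chosen by the naming rule, with each LPS-MCM (red) and Hemin-MCM (blue) library as a point and the mean of 3 libraries as a black line; dotted lines separate the role groups. Foxj1 stands at 123.0 to 130.9 FPKM in LPS-MCM and 163.4 to 173.5 FPKM in Hemin-MCM, while Gmnc is the lowest gene in both.

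The other 58 members held most of the calls, 19 lower (32.8%, beside 13.8% of all tested genes) and 3 higher (5.17%, beside 6.72%). They were divided by function after their values had been seen, so these counts only describe. Transcription factors were lower in 5 of 8 cases (62.5%), Gmnc among them, and in 4 under median-of-ratios scaling. Gmnc, the geminin relative that directs cells to the multiciliated fate, had 0.844, 1.10 and 1.03 FPKM in LPS-MCM libraries and 2.45, 2.54 and 2.86 FPKM in Hemin-MCM libraries. The highest LPS-MCM library was below every Hemin-MCM library, with a difference of -0.86. The mean of Gmnc was 0.993 FPKM in LPS-MCM and 2.62 FPKM in Hemin-MCM, so it was tested only because of the group where it is high, and its difference is given as a description.

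Foxj1, the activator of motile cilium genes, was the second most abundant member. It had 123.0, 127.9 and 130.9 FPKM in LPS-MCM and 163.4, 169.0 and 173.5 FPKM in Hemin-MCM (-0.40 ± 0.05, adjusted p = 0.000262), with libraries of each group close together. The X-box binding factors Rfx2 (13.0 ± 0.407 and 16.2 ± 1.04 FPKM in LPS-MCM and Hemin-MCM), Rfx3 (2.82 to 3.08 and 3.79 to 4.33) and Rfx4 (7.56 ± 0.392 and 9.04 ± 0.263) were each lower too, with differences of -0.29, -0.34 and -0.23 and adjusted p of 0.0075, 0.00826 and 0.0236. Rfx4 lost its call under median-of-ratios scaling or when the second LPS-MCM or any Hemin-MCM library was left out, and its adjusted p ran from 0.0172 to 0.101. Among members with the relaxed X-box motif, 3 of 16 were lower and 1 higher, against 22 lower and 3 higher of the 89 members whose windows did not hold it. Over all tested genes 13.8% were lower and 6.72% higher, and the motif counts were not tested.

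Genes tied to motile cilia, which the GO terms of the rule did not remove, were lower in 6 of 7 cases (85.7%, beside 13.8% of all genes). The count was 3 under median-of-ratios scaling and when the first LPS-MCM or the first or the second Hemin-MCM library was left out, and 4 without the second LPS-MCM or the last Hemin-MCM library. Tekt1, a filament protein inside ciliary microtubules, had 5.59, 6.89 and 6.68 FPKM in LPS-MCM and 11.7, 12.1 and 10.4 FPKM in Hemin-MCM. The groups stood well apart (-0.75 ± 0.08, limma adjusted p = 0.000159). Cfap54, a gene of the central apparatus of motile cilia, had 5.85, 6.80 and 6.77 FPKM in LPS-MCM and 9.34, 9.57 and 8.73 FPKM in Hemin-MCM (-0.45 ± 0.07, adjusted p = 0.00138). Nme5, Stk36, Kif27 and Cfap298 were the other 4, with differences from -0.39 to -0.19. Of these, Nme5 kept its call in all 15 alternatives, while Stk36, Kif27 and Cfap298 lost theirs in 8, 8 and 9 of them.

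Actin genes were lower in 4 of 8 cases (50%, beside 13.8%) and higher in 1, and leaving out any single library kept both counts. Gsn, which encodes the filament-severing protein gelsolin, had the smallest adjusted p of all members, with 21.0, 22.8 and 19.7 FPKM in LPS-MCM libraries and 32.4, 33.7 and 33.2 FPKM in Hemin-MCM libraries (-0.62 ± 0.06, limma adjusted p = 6.34e-05). Flna, the filament crosslinker filamin A and the most abundant member, had 158.3, 161.9 and 130.2 FPKM in LPS-MCM and 210.8, 201.9 and 213.7 FPKM in Hemin-MCM (-0.48 ± 0.08, adjusted p = 0.00169). The third LPS-MCM library was lowest for both genes. Fhdc1, a formin, was at 3.17 ± 0.259 and 4.85 ± 0.328 FPKM (-0.49 ± 0.08, adjusted p = 0.00128), and Ablim1, an actin-binding LIM protein, was also lower (-0.35 ± 0.06).

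Fnbp1l, a membrane-bending protein that promotes actin assembly, was the member with the largest positive difference. It had 28.4, 24.9 and 27.3 FPKM in LPS-MCM and 21.3, 20.9 and 20.0 FPKM in Hemin-MCM (0.36 ± 0.06, limma adjusted p = 0.00193). Actr2 and Actr3, subunits of the actin-nucleating Arp2/3 complex, did not pass, at 68.5 and 67.3 FPKM and at 96.4 and 105.4 FPKM in LPS-MCM and Hemin-MCM.

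Among 12 membrane traffic genes, 2 were lower (16.7%, near the 13.8% of all genes) and 2 higher (16.7%, beside 6.72%). Ehd1, an ATPase needed to form the ciliary vesicle, had 63.2, 67.3 and 58.6 FPKM in LPS-MCM and 49.3, 55.2 and 53.8 FPKM in Hemin-MCM (0.25 ± 0.06, limma adjusted p = 0.0191). That call was lost without the first (0.0552) or the second LPS-MCM library (0.0611), with either the first (0.0752) or the third (0.0502) of Hemin-MCM left out, and with no low-value filter (0.0504). The adjusted p ran from 0.00611 to 0.0752 over the alternatives. Ehd4, an ATPase of the same family, had 6.36, 7.51 and 6.96 FPKM in LPS-MCM and 11.1, 10.5 and 10.2 FPKM in Hemin-MCM, with the opposite sign and no overlap (-0.55 ± 0.07, adjusted p = 0.000355). Ehd2 and Ehd3 did not pass (adjusted p = 0.76 and 0.705). Snx10, a sorting nexin of endosomes, was higher at 47.5 ± 2.81 FPKM in LPS-MCM and 38.3 ± 2.6 FPKM in Hemin-MCM (0.30 ± 0.06, adjusted p = 0.00692). Rab29, a small GTPase and the second lower gene, was at 30.6 ± 1.09 FPKM in LPS-MCM and 35.5 ± 2.03 FPKM in Hemin-MCM (-0.21 ± 0.06, adjusted p = 0.0263). Its call was lost with median-of-ratios scaling and when the first or the third LPS-MCM or the second or the third Hemin-MCM library was left out (adjusted p from 0.013 to 0.118 over the alternatives). Of the remaining 23 members, 2 were lower, Map11 and Ptpdc1 (8.7%, below the 13.8% of all genes). None of the 23 was lower with median-of-ratios scaling, with no low-value filter, or when the first or the second LPS-MCM or the third Hemin-MCM library was left out, and 1 was when the first or the second Hemin-MCM library was.

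Fuller lists of ciliary genes, which include members and genes the GO rule left out, are set beside the 13.8% lower and 6.72% higher of all tested genes. The counts of these lists come from the main fit alone and were not recounted in the alternatives. Of 18 tested IFT-B genes 7 were lower (38.9%), and of 7 IFT-A genes 3 (42.9%), with none higher in either. Among these lower genes, the members Ift43, Cluap1 and Rabl2 lost their calls in 7, 8 and 2 of the alternatives. Outside the members, Ttc30b (24.2 ± 1.3 and 30.9 ± 1.67 FPKM in LPS-MCM and Hemin-MCM), Ttc30a1 (3.14 ± 0.158 and 4.17 ± 0.348) and Ift88 (5.48 ± 0.0489 and 6.80 ± 0.51), all IFT-B subunits, were among the lower genes, with limma adjusted p of 0.00257, 0.0144 and 0.0193. Ttc30a1 and Ttc30b are near-identical copies, and reads they share may be assigned to either, which leaves each value uncertain. The lower IFT-A genes besides Ift43 were Wdr35 (-0.24 ± 0.06) and Wdr19 (-0.21 ± 0.06). Of 13 motor genes 1 was lower (7.69%), Dync2li1, a light intermediate chain of the IFT dynein (51.1 ± 1.72 and 59.0 ± 1.68 FPKM, adjusted p = 0.0137).

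The BBSome list with its chaperones had 2 of 13 lower (15.4%), the same Bbs9 and Ttc8, and the transition zone list 4 of 23 (17.4%), both near the share over all genes, with none higher in either. Below that share, 2 of 27 genes of centrioles, appendages and satellites were lower (7.41%) and 1 higher, and of 19 ciliary membrane traffic genes 1 was lower (5.26%), Unc119, and 1 higher, Ehd1. Of 10 tested ciliary transcription factors 6 were lower (60%), among them Rfx1, which is no member, and 4 did not pass. Gmnc, also among the lower ones, was tested only because of its Hemin-MCM level. The Hedgehog list, which holds no member, had 1 of 14 lower (7.14%) and 1 higher: Gli1, the activator and target gene of that pathway, at 3.56 ± 0.546 and 5.24 ± 0.659 FPKM in LPS-MCM and Hemin-MCM (-0.45 ± 0.11, limma adjusted p = 0.0124), and the inhibitor gene Sufu at 16.2 ± 0.987 and 12.8 ± 0.777 FPKM (0.32 ± 0.07, adjusted p = 0.00649). Of 11 genes of cilium disassembly 3 were lower (27.3%) and none higher, among them the mitotic kinase genes Nek2 (-0.30 ± 0.08, limma adjusted p = 0.0223) and Aurka (-0.43 ± 0.12, limma adjusted p = 0.0246).

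Cilium assembly genes that do carry axoneme or motile terms were the nearest neighbours of the members. Of 54 tested, 21 were lower (38.9%, beside 13.8% of all tested genes) and 0 higher (beside 6.72%), with a median of -0.19. The difference from the members was not tested. Leaving out of the members the 7 genes that also stand in the lists of ciliary transcription factors or ependymal markers left 23 lower of 117. This is 19.7%, beside 23.4% of all members and 13.8% of all tested genes, a count added after the data were seen.

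Markers of other cells moved in the same comparison, in which 13.8% of all tested genes were lower and 6.72% higher. Of 12 tested ependymal markers, 9 were lower and Rarres2 higher. The 14 listed markers, none of them at 0 in all libraries, summed to 306.6 to 322.4 FPKM per LPS-MCM library and 384.4 to 396.4 FPKM per Hemin-MCM library. Foxj1 and Tekt1 are on this list too. Ccdc153 had 2.49, 1.87 and 2.54 FPKM in LPS-MCM and 6.33, 7.11 and 6.42 FPKM in Hemin-MCM (-1.21 ± 0.09, limma adjusted p = 1.49e-05). Tmem212, a defining ependymal gene, was near 0 in LPS-MCM (0.0455, 0.0453 and 0.0425 FPKM) and low in Hemin-MCM (0.14, 0.593 and 0.255 FPKM). The part of ependymal cells in the members' differences was not tested.

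Microglia markers were lower in 16 of 19 tested cases (84.2%, beside 13.8% of all tested genes), and 1 was higher. They summed to 2207 to 2498 FPKM per LPS-MCM library and 4358 to 4687 FPKM per Hemin-MCM library. Tmem119 (means of 0.518 and 4.63 FPKM in LPS-MCM and Hemin-MCM) and P2ry12 (0.397 and 2.05) were tested only because of their Hemin-MCM level. Siglech was at 0 in 5 of the 6 libraries. Astrocyte markers were present at sums of 1430 to 1491 and 1739 to 1829 FPKM, with 5 of 10 lower and Slc1a2 higher. Of 23 proliferation genes 17 were lower and none higher, summing to 128.8 to 132.7 FPKM in LPS-MCM and 187.8 to 195.1 FPKM in Hemin-MCM. Oligodendrocyte lineage markers were lower in 2 of 7 cases, neuron markers lower in 2 and higher in 1 of 4, and no endothelial marker reached the floor. Fibroblast and meningeal markers were lower in 1 and higher in 2 of 7, with a median difference of -0.47. The 9 listed ones summed to 105.5 to 109 FPKM per LPS-MCM library and 149.9 to 163.8 FPKM per Hemin-MCM library. The part of these cells and of proliferation in the members' differences was not tested.

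**Figure D5:**
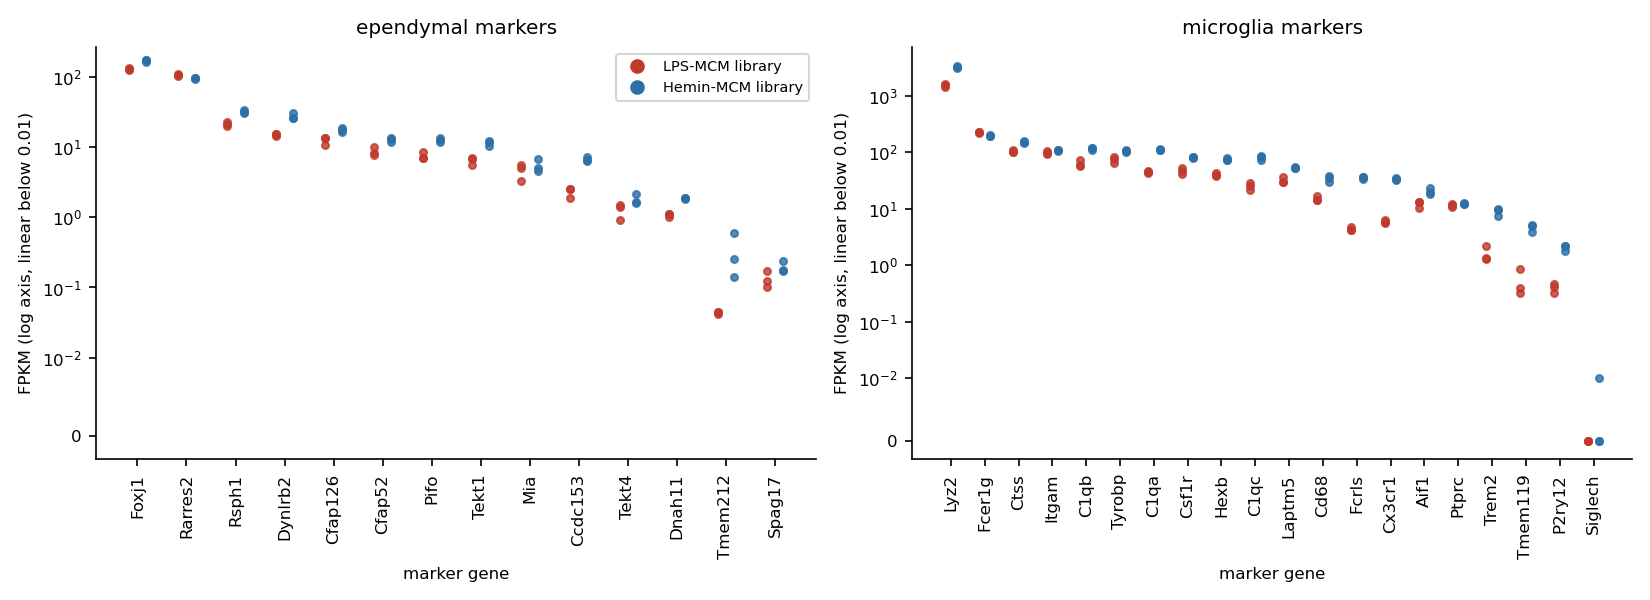
FPKM of ependymal markers (left) and microglia markers (right) in each LPS-MCM (red) and Hemin-MCM (blue) library, on an axis that is logarithmic above 0.01 FPKM and linear below. Red points lie below blue points for most genes, with Rarres2 and Fcer1g as the exceptions that passed the test.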

How the data were processed

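RNA from 6 libraries, 3 of LPS-MCM and 3 of Hemin-MCM, was analysed from 1 table of gene-level FPKM values deposited by the authors. Libraries were made with a stranded mRNA kit, per the labels' protocols. The submitters' processing notes give mm10 as the build and list DESeq, with no version. How reads were aligned and counted, and with which strand setting, is not given in the sources used here, so reads of overlapping genes may not be separated. Columns were matched to samples by treatment word and number, and 3 further columns of values, whose names match no sample title, were not used. FPKM are not counts, so limma 3.58.1 in R 4.3.3 (mean-variance trend, 4 residual degrees of freedom, two-sided) was fitted to log2(FPKM + 1) of genes averaging 1 FPKM or more, and checked on simulated data. Read totals are not in the table. From the steps of values below 0.3 FPKM, relative depths were 0.971 to 1.07 times the first LPS-MCM library. Pearson correlations across genes were 0.9944 to 0.9968 within groups and 0.9809 to 0.9854 between them.

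Role groups came from GO terms in the table, in the order intraflagellar transport, BBSome, transition zone, centriole and basal body, other. Named members are up to 4 with the smallest adjusted p and the most abundant one of each role group, the 8 largest called differences in each direction, and, from a list of core ciliary genes, those that were members (Cep290, Cep164, Pcm1 and Rab8a). From each other ciliary list up to 3 genes were named. Members named beyond this, such as Rfx2, Nme5 and Plk4, were chosen after their values were seen. The members and lists were chosen with earlier results of these data known. Alternatives were other pseudocounts (0.1, 0.5), filters (none, 5 FPKM), scalings and variance models, a replicate block and leaving out each library.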

Additional observations from a re-analysis of the deposited data

How the results depend on the processing

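Of the 34 called members, 20 (17 lower, 3 higher) kept their call in each of the 15 alternative fits that tested them, and 14 lost it in at least 1. The count of lower members was 29, and 18 under median-of-ratios scaling; that of higher members was 5, and 3 without the low-value filter. Leaving out 1 library gave 18 to 32 lower and 3 to 4 higher members, and 1058 to 1652 lower and 581 to 763 higher genes in all. Intraflagellar transport had 4 lower genes, 2 without the filter, with a 5 FPKM filter or under median-of-ratios scaling, 7 with array weights, and 1 to 5 without 1 library. The BBSome had 2, and 1 without the filter, under either other scaling, without the trend or with the replicate block, and 1 to 2 without 1 library. Centriole genes had 1, and 3 without the trend, 4 with array weights, 2 with the block and 1 to 5 without 1 library; other members had 19, and 12 under median-of-ratios scaling, and 13 to 18 without 1 library. Fewer samples and more genes tested are part of the leave-one-out and no-filter settings. With the 5 FPKM filter 8 called members were not tested, among them the intraflagellar transport genes Ubxn10 (mean 3.37 FPKM) and Cluap1 (4.05). The cause of the other moves was not tested. The neighbouring set with axoneme or motile terms had 21 lower (38.9%, beside 13.8% of all genes) and 0 higher.

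Near 0, Cep290 (0.01) was at -0.0103 with array weights and between -0.0599 and 0.0626 without 1 library, and Pcm1 (-0.02) was at 0.0197 under median-of-ratios scaling and between -0.0981 and 0.026 without 1 library. Deviations of same-numbered libraries correlated at 0.0796, 0.107 and -0.106, and those of unlike-numbered libraries at -0.212 to 0.126. Such correlations cannot show whether same-numbered samples were made together, so pairing is not known. With the replicate block 26 members were lower and 4 higher. Replicates number 3 per group, and read totals are not given, so differences of low genes such as Gmnc have no counting interval.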
